A study of Mus musculus with 12 samples.

Results

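*Por*, *Upp2*, *Inmt*, *Gnat1*, *Dcun1d4* and *1810013L24Rik* are 6 genes of the mouse liver taken here as outputs of the circadian clock. They were taken as clock-controlled genes or as genes bound by the clock factor pair CLK:BMAL1, and binding alone does not show control. They were picked by symbol, and all 6 were found among the 20069 genes of the deposited table. Each of them was among the 10198 genes counted as expressed, which had more than 8 reads per base pair (rpbp) in at least 1 sample. There were 12 liver samples from wild-type C57BL/6 mice, males of 3 to 6 months, kept untreated under 12 hr of light and 12 hr of darkness. They were taken every 4 hr from ZT2 to ZT22, where ZT (Zeitgeber time) counts hours from lights on, in 2 independent series, so that each of the 6 times has 2 samples. Polyadenylated RNA was sequenced, and the signal of a gene is the mean coverage of its exons in rpbp, given here on the scale of 40000000 uniquely mapped sequences. The labels do not say whether a sample held 1 animal or several, and p-values measure the spread between these samples only. The study allows that some RNA rhythms in such mice may follow the light cycle and not the clock.

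In the liver clock, CLK and BMAL1 bind E-box sequences and switch on the genes of their own repressors, the PER and CRY proteins, along with many output genes. Some outputs are driven directly by CLK:BMAL1, and others through clock-controlled factors such as DBP, TEF and HLF, which bind D-boxes, or the REV-ERB receptors. *Por* encodes cytochrome P450 oxidoreductase, which passes electrons from NADPH to the microsomal cytochromes P450. *Upp2* encodes a liver uridine phosphorylase, which splits uridine into uracil and ribose 1-phosphate, and *Inmt* encodes indolethylamine N-methyltransferase, which methylates tryptamine and related amines. *Gnat1* encodes the alpha subunit of transducin, the G protein of rod photoreceptors. *Dcun1d4* belongs to the family of DCN1-like proteins, which help to attach NEDD8 to cullins, and the product of *1810013L24Rik*, a protein conserved in mammals, is known to bind the ubiquitin ligase HUWE1.

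In the mm9 annotation (GENCODE), *Por* lies on chromosome 5 at 136145903 to 136211196 (plus strand). *Upp2* lies on chromosome 2 at 58419709 to 58645382 (plus strand), and its 6 annotated transcripts include a long form that starts far upstream of the others. *Inmt* lies on chromosome 6 at 55120620 to 55125037 (minus strand) and *Gnat1* on chromosome 9 at 107576808 to 107581923 (minus strand). *Dcun1d4* lies on chromosome 5 at 73872241 to 73952033 (plus strand), with 11 annotated transcripts, and *1810013L24Rik* on chromosome 16 at 8830193 to 8859009 (plus strand). The authors' signal covered all exons of all isoforms, so a change in isoform use cannot be told apart from a change in level. It also ignored the strand. No exon base of these genes is shared with another annotated gene on either strand, although *Gm16061* lies within *Por*, and *Gm13558* and *Gm13559* within *Upp2*.

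The 250 bases before the start site are shown for 5 of the genes, since the study treats them as outputs of the clock and the clock factors read short motifs. The sequences come from RefSeq on build GRCm38.p6, are written 5′ to 3′ on the strand of the gene, and carry matched motifs in capitals. For *Upp2* the downstream one of its 2 RefSeq starts is shown, because it holds a match and the other does not. All 3 *Dcun1d4* windows hold a match, and the third is shown as an example. The *Por* window is chr5:135688895-135689144 (plus strand), the *Upp2* window chr2:58754934-58755183 (plus), the *Inmt* window chr6:55174991-55175240 (minus), the *Dcun1d4* window chr5:73490776-73491025 (plus) and the *1810013L24Rik* window chr16:8829850-8830099 (plus).
Por: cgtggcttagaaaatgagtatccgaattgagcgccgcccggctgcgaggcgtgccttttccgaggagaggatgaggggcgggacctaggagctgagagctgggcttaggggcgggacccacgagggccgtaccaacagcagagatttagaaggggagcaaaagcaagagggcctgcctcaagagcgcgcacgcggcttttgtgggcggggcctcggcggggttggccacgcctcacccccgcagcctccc
Upp2: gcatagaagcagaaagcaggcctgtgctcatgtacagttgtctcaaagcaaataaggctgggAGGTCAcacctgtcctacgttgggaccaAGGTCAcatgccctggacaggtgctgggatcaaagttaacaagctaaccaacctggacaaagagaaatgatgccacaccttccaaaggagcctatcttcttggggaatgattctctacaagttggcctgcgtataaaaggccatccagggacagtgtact
Inmt: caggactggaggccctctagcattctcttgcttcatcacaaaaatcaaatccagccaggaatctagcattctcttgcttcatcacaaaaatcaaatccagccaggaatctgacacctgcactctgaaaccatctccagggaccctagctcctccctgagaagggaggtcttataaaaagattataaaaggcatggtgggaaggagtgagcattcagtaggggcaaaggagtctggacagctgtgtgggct
Dcun1d4: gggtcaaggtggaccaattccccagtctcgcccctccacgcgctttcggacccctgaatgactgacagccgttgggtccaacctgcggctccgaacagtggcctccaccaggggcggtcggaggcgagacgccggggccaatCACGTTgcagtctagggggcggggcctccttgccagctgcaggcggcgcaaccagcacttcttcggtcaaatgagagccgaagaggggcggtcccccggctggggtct
1810013L24Rik: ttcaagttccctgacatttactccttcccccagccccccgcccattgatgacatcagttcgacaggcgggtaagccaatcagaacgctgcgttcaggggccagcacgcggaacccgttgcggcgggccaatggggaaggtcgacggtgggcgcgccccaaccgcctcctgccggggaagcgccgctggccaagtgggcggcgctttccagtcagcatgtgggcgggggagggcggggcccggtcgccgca

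Both strands of the 8 RefSeq windows of these 5 genes were searched for the E-box CACGTG, the variant CACGTT, the D-box forms TTATGTAA, TTATGCAA and TTACGTAA, and the nuclear receptor site AGGTCA. No window held CACGTG, which 6.02% of the 32851 windows in the RefSeq table hold, and none held a D-box form, which 1.61% hold. The letters CACGTT, held by 3.85% of all windows, occur in the third *Dcun1d4* window 108 bases before the start, and on the other strand of the first *Dcun1d4* window 91 bases before it. The letters AGGTCA, held by 14.02% of all windows, occurs in pairs in the downstream *Upp2* window, 188 and 160 bases before the start, and once in the second *Dcun1d4* window, 25 bases before it. None of these matches overlaps another. The *Por* and *1810013L24Rik* windows hold 65.6% and 68.4% G or C, with 21 and 25 CpG, and the *Inmt* window 48.0% with 0 CpG. The 2 *Upp2* windows differ, with 73.2% and 29 CpG in the upstream one and 49.2% and 2 CpG in the downstream one. The median over all windows is 52.4% G or C. A match of letters is a description and was not tested for binding, and a missing match concerns these windows only. *Gnat1* was not among the windows used.

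The ZT2 samples stood apart from those of the other times. Across genes, the log2 signal of ZT2 samples correlated with that of samples from other times at r between 0.9204 and 0.971, while samples of the other 5 times correlated among themselves at 0.944 to 0.981 and pairs of the same time at 0.975 to 0.987. All 5 hepatocyte markers were present in every sample, and their summed signal was 89354 and 92182 rpbp at ZT2 against 132320 to 169320 rpbp at other times, with *Alb* and *Ttr* below and *Apoa1* and *Serpina1a* above all other samples. The 4 measured Kupffer cell markers summed to 489.7 and 490.9 rpbp at ZT2 against 233 to 401 rpbp elsewhere, although *Emr1* stayed within its range at other times. The summed endothelial, stellate, cholangiocyte and blood markers at ZT2 also lay within their ranges at other times. Lower signal from fewer cells of a type and from less RNA per cell cannot be told apart in whole liver. The part of these shifts in the results below was not tested, and the results were recomputed without both ZT2 samples.

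*Por* was highest around the change from light to darkness. Its signal in series 1 was 104, 251, 524, 377, 212 and 106 rpbp from ZT2 to ZT22, and in series 2 it was 106, 326, 434, 471, 178 and 125 rpbp. ZT10 and ZT14 held the 4 highest values in both series and did not separate from each other, and ZT2 and ZT22 held the 4 lowest. The mean went from 105 ± 1.41 rpbp (SD, n = 2) at ZT2 to 479 ± 63.2 rpbp at ZT10, a ratio of 4.55. The share of the variance of the 12 values that a 24 hr cosine takes, called F24, was 0.927, which is higher than in 99.8% of expressed genes. The peak of that cosine, called the phase, was ZT11.3, and it came out at ZT11.3 in series 1 and ZT11.2 in series 2.

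*Upp2* rose and fell over a wide range. Its signal was 64.8, 324, 693, 224, 102 and 38.4 rpbp from ZT2 to ZT22 in series 1 and 47.2, 316, 337, 253, 116 and 46.0 rpbp in series 2. The series agree within 1.37-fold at every time but ZT10, where series 1 was 2.05-fold above series 2. ZT6 and ZT10 lay above all other times in both series, and ZT22 and ZT2 below them. The mean rose from 42.2 ± 5.402 rpbp (SD, n = 2) at ZT22 to 515 ± 252 rpbp at ZT10, a ratio of 12.2. The highest single value was 18.1 times the lowest one. That ratio, called the amplitude, was the largest of the 6 genes with all samples, but 8.80 without the ZT10 sample of series 1. In series 2 alone the amplitude was 7.34 for *Upp2* and 9.21 for *Inmt*, so that the order turned. F24 was 0.749 with all samples and 0.912 without that sample, and the phase was ZT9.86 (ZT9.75 in series 1 and ZT10.0 in series 2).

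*Inmt* was the most abundant, at a mean of 1690 rpbp, above 99.0% of expressed genes. Series 1 gave 322, 2548, 2874, 1669, 1733 and 988 rpbp from ZT2 to ZT22, and series 2 gave 293, 2394, 2695, 2013, 1825 and 931 rpbp. The level was high at ZT6 and ZT10, lower and flat at ZT14 and ZT18, where the series overlap, and lowest at ZT2. The mean rose from 307 ± 20.7 rpbp (SD, n = 2) at ZT2 to 2471 ± 108 rpbp at ZT6, 8.05 times higher within 4 hr. The series differed by 1.21-fold or less at every time. F24 was 0.705 and the phase ZT10.9 (ZT10.6 in series 1 and ZT11.3 in series 2). A further 27.8% of the variance fell on a 12 hr cosine, against a median of 10.96% over all rhythmic genes, as a description of a curve with a steep rise and a shoulder at night. That share, 0.278 of the variance, was 0.169 without the ZT2 sample of series 1 and 0.167 without that of series 2, and it reached 0.406 without the ZT14 sample of series 2, the highest with 1 sample left out. Much of the swing lay in the ZT2 samples that stood apart. Without them the amplitude was 3.09 in place of 9.83 and the phase ZT9.24, with F24 at 0.831.

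**Figure D1:**
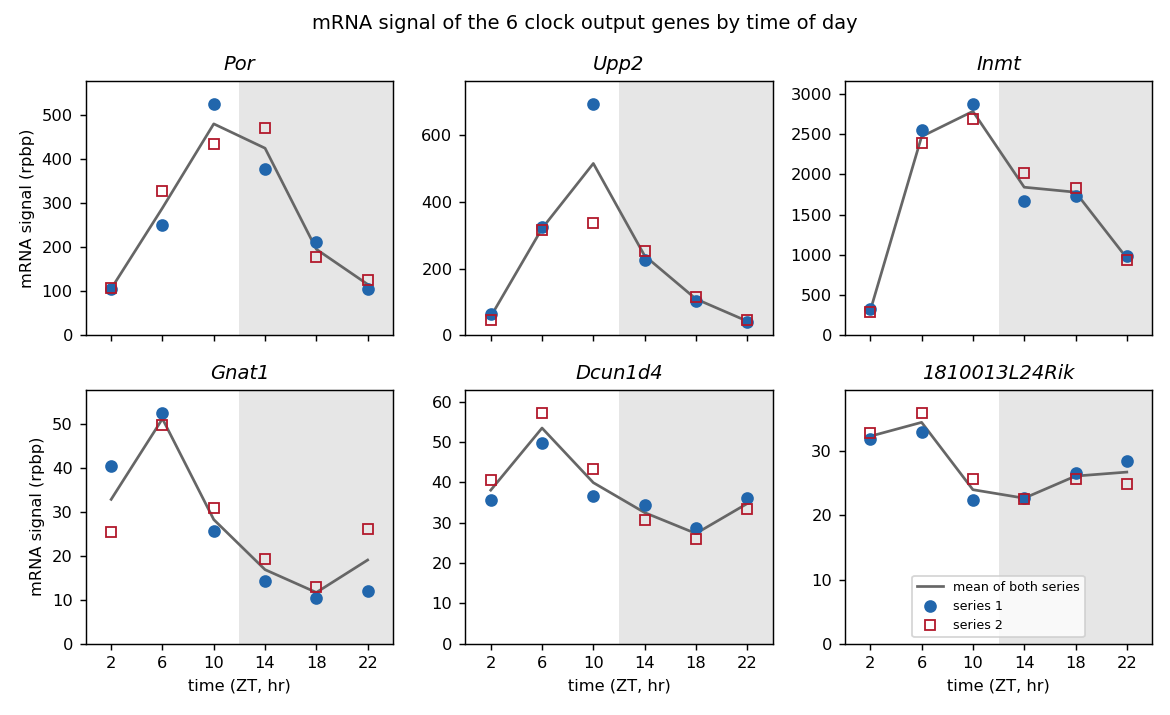
mRNA signal in rpbp of the 6 genes against time of day (ZT, hr), with series 1 as filled circles, series 2 as open squares and their mean as a line; each panel has its own axis from 0 and the dark phase is shaded. *Por*, *Upp2* and *Inmt* have their highest means at ZT10, *Gnat1*, *Dcun1d4* and *1810013L24Rik* at ZT6, and the ZT10 values of *Upp2* are 693 and 337 rpbp.

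*Gnat1*, the rod transducin subunit, was measured in liver at a level near the median of expressed genes. Its signal was 40.4, 52.7, 25.7, 14.4, 10.4 and 12.0 rpbp from ZT2 to ZT22 in series 1 and 25.4, 49.9, 30.9, 19.4, 13.0 and 26.2 rpbp in series 2. Both ZT6 values lay above all others, and each series was lowest at ZT18, although the ranges at ZT18 and ZT22 overlap. The mean fell from 51.3 ± 1.95 rpbp (SD, n = 2) at ZT6 to 11.7 ± 1.78 rpbp at ZT18, a ratio of 4.38. The series differed most at ZT22, by 2.18-fold. F24 was 0.801 and the phase ZT5.57 (ZT5.35 in series 1 and ZT5.90 in series 2). Genes that define rods were at or near 0 in every liver: *Pde6a*, *Pde6b* and *Cnga1* reached at most 0.16 rpbp. The other transducin alpha genes were low too, *Gnat2* with 0.32 to 2.76 rpbp and *Gnat3* with 0 to 0.40 rpbp.

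*Dcun1d4* followed a similar course with a smaller swing. Series 1 gave 35.6, 49.7, 36.5, 34.3, 28.6 and 36.2 rpbp from ZT2 to ZT22, and series 2 gave 40.6, 57.3, 43.4, 30.8, 26.0 and 33.3 rpbp. Both ZT6 values lay above all others and both ZT18 values below all others. The mean fell from 53.5 ± 5.37 rpbp (SD, n = 2) at ZT6 to 27.3 ± 1.84 rpbp at ZT18, a ratio of 1.96. F24 was 0.759 and the phase ZT5.96, with ZT5.85 in series 1 and ZT6.02 in series 2. Without both ZT2 samples F24 was 0.884 and the phase ZT5.08.

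*1810013L24Rik* had the shallowest curve. Its signal was 31.8, 33.0, 22.3, 22.8, 26.6 and 28.5 rpbp from ZT2 to ZT22 in series 1 and 32.8, 35.96, 25.6, 22.6, 25.6 and 24.9 rpbp in series 2. The 4 values at ZT2 and ZT6 lay above the other 8. Of these, ZT10 overlaps ZT14 and ZT18 overlaps ZT22, whereas both ZT14 values lie below those at ZT18 and ZT22. The mean was 34.5 ± 2.12 rpbp (SD, n = 2) at ZT6 and 22.7 ± 0.141 rpbp at ZT14, a ratio of 1.52. F24 was 0.717 and the phase ZT3.18, but the series placed it at ZT2.04 and ZT4.16. The amplitude of 1.61 lay just above the limit of 1.5, and it was 1.48, below that limit, without the ZT6 sample of series 2.

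The study called mRNA rhythmic if a permutation p was below 0.05, F24 above 0.45 and the amplitude above 1.5. By these criteria, applied to the whole table, all 6 genes were rhythmic, where 1948 of the 10198 expressed genes (19.1%) were. 5 of the 6, all but *1810013L24Rik*, also met the limits for strong rhythms (a higher F24 and amplitude), which 7.89% of expressed genes met. These counts are no independent evidence of rhythm, because the study named *Por*, *Upp2* and *Inmt* as rhythmic from the same values, and all 6 genes were chosen here with results of these data known. The permutation p, from 10000 random orders of the 12 values, was 0.0001 for *Por*, the smallest that they can give. It was 0.0002 for *Upp2* and *Dcun1d4*, 0.001 for *Gnat1*, 0.006 for *Inmt* and 0.0081 for *1810013L24Rik*. Once adjusted by Benjamini-Hochberg for all genes tested, *Por* (adjusted permutation p = 0.0146), *Upp2* and *Dcun1d4* (0.0167 each) and *Gnat1* (0.0309) passed, against 4.81% of all expressed genes. *Inmt* (0.0695) and *1810013L24Rik* (0.0781) did not pass. Without both ZT2 samples all 6 met the unadjusted criteria, against 15.1% of expressed genes, with permutation p between 0.0002 for *Dcun1d4* and 0.0202 for *1810013L24Rik*. Either series alone has 6 values, and the exact test over their 720 orders gave p between 0.0333 and 0.167.

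A moderated linear model in limma on log2(rpbp + 1) gave a second view of the same samples. A 24 hr cosine passed at an adjusted p below 0.05 in 5 of the 6 genes, against 8.61% of expressed genes. The adjusted p was 5.2e-05 for *Por*, 0.00039 for *Upp2*, 0.0037 for *Gnat1*, 0.011 for *Dcun1d4* and 0.038 for *1810013L24Rik*. *Inmt* missed the limit at 0.0546, and passed at 0.0203 without both ZT2 samples, where *1810013L24Rik* did not (0.123). The call for *1810013L24Rik* was lost in 9 of the 12 fits that left out 1 sample (adjusted p of 0.0502 to 0.0845 in limma), and it remained without the ZT10 or ZT18 sample of series 1 or the ZT22 sample of series 2. The fitted peak to trough fold on the log2(rpbp + 1) scale, which understates low genes, was 11.8 for *Upp2*, 5.18 for *Inmt*, 5.14 for *Por*, 3.69 for *Gnat1*, 1.70 for *Dcun1d4* and 1.44 for *1810013L24Rik*. With time as a factor of 6 levels and no assumed shape, all 6 genes differed between times, against 17.6% of expressed genes. *Inmt* had the lowest adjusted p in that limma test, 2.3e-05, and *1810013L24Rik* the highest, 0.0249. Without both ZT2 samples 5 of the 6 differed between times, against 4.6% of expressed genes, and *1810013L24Rik* did not pass (adjusted p = 0.0843, limma). Without the ZT6 sample of series 2, which leaves 1 sample at that time, *Por*, *Upp2* and *Inmt* passed the test over all times and the others did not. Fewer genes of the whole table passed in that fit too. The call for *Gnat1* was also lost without the ZT6 or the ZT18 sample of series 1 (adjusted p of 0.0829 and 0.0587 in limma), and that for *1810013L24Rik* without any 1 of the samples at ZT2, ZT6 and ZT14 (0.0554 to 0.0857).

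**Figure D2:**
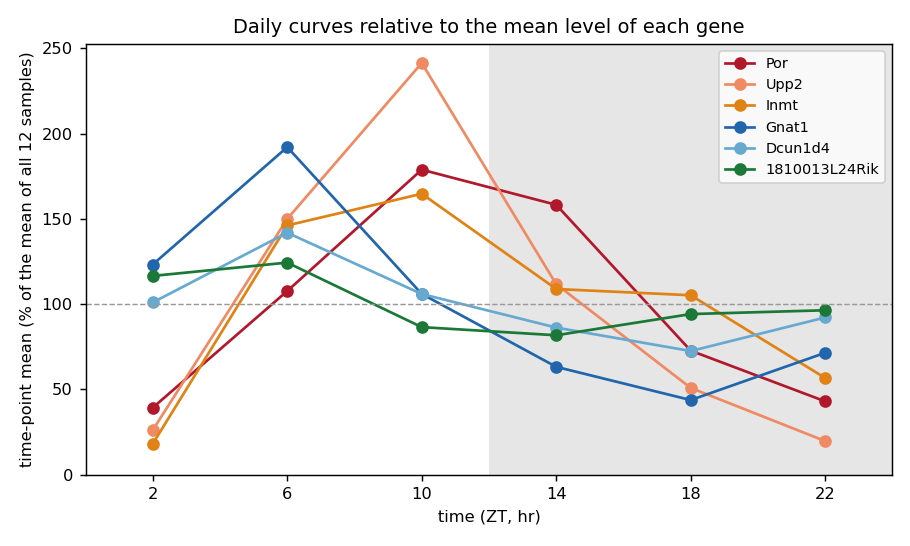
Mean of both series at each time (ZT, hr) as a percent of the mean of all 12 samples of the same gene, one line a gene, with the dark phase shaded and the dashed line at 100%. *Upp2* runs from 19.8% at ZT22 to 241% at ZT10, whereas *1810013L24Rik* stays between 81.8% and 124%.

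Per base of exon, *Inmt* stood far above the others, with a mean of 1690 rpbp over the 12 samples. *Por* followed at 268 rpbp and *Upp2* at 214 rpbp, and their ranges over the day overlap. *Dcun1d4* at 37.7 rpbp, *1810013L24Rik* at 27.7 rpbp and *Gnat1* at 26.7 rpbp overlapped one another too, near the median of 22.9 rpbp of all expressed genes. The mean of the 3 light-phase times over that of the 3 dark-phase times was 2.36 for *Gnat1*, 2.29 for *Upp2*, 1.39 for *Dcun1d4*, 1.21 for *Inmt*, 1.20 for *1810013L24Rik* and 1.19 for *Por*.

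With all samples on the linear scale the order of the phases was *1810013L24Rik*, *Gnat1*, *Dcun1d4*, *Upp2*, *Inmt* and *Por*. The first 3 peaked between ZT3.18 and ZT5.96, in the earlier part of the light phase, and the last 3 between ZT9.86 and ZT11.3, near lights off. *Gnat1* and *Dcun1d4* did not differ beyond the spread of the series, nor did *Inmt* and *Por*, whose ranges over both series overlap. Both pairs changed order with the processing: on log2 values *Inmt*, at ZT12.05, followed *Por*, at ZT11.37, and without both ZT2 samples *Dcun1d4*, at ZT5.08, preceded *Gnat1*, at ZT5.13. The gap of 3.90 hr between *Dcun1d4* and *Upp2* was wider than any difference between series, the largest of which was 2.12 hr for *1810013L24Rik*. *Upp2* preceded *Inmt* by 1.07 hr with all samples, but without both ZT2 samples they stood at ZT9.28 and ZT9.24, in the other order. With that change *Por* moved from ZT11.3 to ZT11.2 and *1810013L24Rik* from ZT3.18 to ZT3.12. Across the 12 samples the log2 signals of *Por* and *Upp2* had a Pearson r of 0.93, *Por* and *Inmt* 0.82, *Upp2* and *Inmt* 0.80 and *Gnat1* and *Dcun1d4* 0.80, while r between *Por* and *Gnat1* was 0.10. These r describe samples that share their times and libraries. Of the 1948 rhythmic genes, 22.4% had a phase between ZT0 and ZT4, 10.9% between ZT4 and ZT8 and 23.8% between ZT8 and ZT12.

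**Figure D3:**
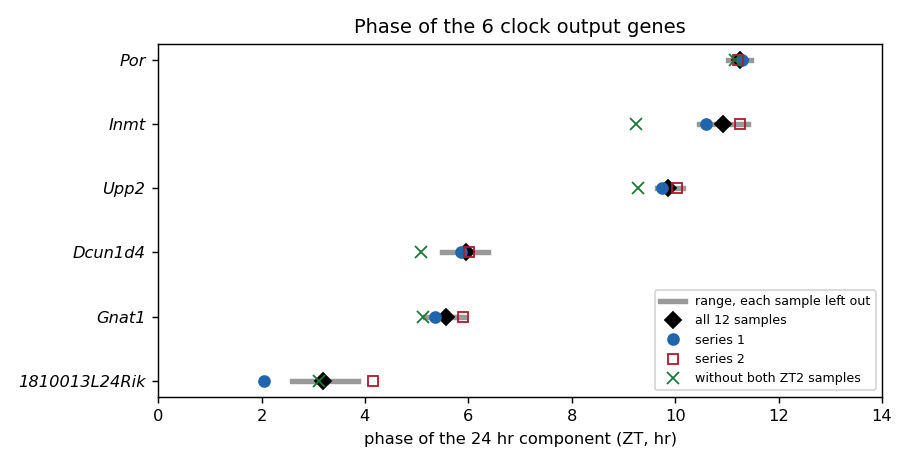
Phase of the 24 hr component (ZT, hr) of each gene with all 12 samples (diamond), in series 1 (circle), in series 2 (square) and without both ZT2 samples (cross), with a bar for the range when each sample is left out. The phases of *Por* lie between ZT11.03 and ZT11.5 when a sample is left out, and *Inmt* moves from ZT10.9 to ZT9.24 without both ZT2 samples.

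Steps between neighbouring times show when in the day the levels changed. From ZT2 to ZT6, 4 of the 6 genes rose, against 10.5% of expressed genes that were called higher. *Inmt* rose by 3.00 ± 0.11 on the log2 scale (SE; adjusted p = 4.1e-06, limma), *Upp2* by 2.51 ± 0.29 (0.0013), *Por* by 1.43 ± 0.18 (0.0016) and *Dcun1d4* by 0.48 ± 0.13 (0.034). In all 6 genes, called or not, both ZT6 values lay above both ZT2 values. How many of all expressed genes separated in this way was not computed. That step also changed 1066 genes upward and 876 downward in the whole table, more than any other step, and it rests on the ZT2 samples that stood apart. The call for *Dcun1d4* was lost when any 1 of the 4 samples was left out, whereas those for *Por*, *Upp2* and *Inmt* remained. With 1 of them left out, 389 to 462 genes were called higher in that step and 263 to 343 lower. From ZT22 to ZT2, *Inmt* was the 1 gene called, lower by 1.64 on the log2 scale (SE 0.11; adjusted p = 0.00074, limma), against 1.02% of expressed genes called lower. With 1 sample left out that change of *Inmt* was between -1.71 and -1.57 on the log2 scale. Without either ZT2 sample, fewer genes of the whole table were called lower in that step. *Inmt* was 959 ± 40.1 rpbp (SD, n = 2) at ZT22.

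No step from ZT6 to ZT22 was called for any of the 6 genes in limma. Few genes were called there at all, 0.235% of expressed genes from ZT6 to ZT10, 0.569% from ZT10 to ZT14, 0.235% from ZT14 to ZT18 and 0.0392% from ZT18 to ZT22, in either direction. At an unadjusted p under 0.05, 4, 2, 2 and 4 of the 6 genes passed in these steps in limma, where 12.1%, 17.0%, 15.6% and 12.0% of expressed genes passed at the same threshold. *Por* had a log2 change of 0.74 ± 0.18 (SE) from ZT6 to ZT10, -1.11 ± 0.18 from ZT14 to ZT18 and -0.75 ± 0.18 from ZT18 to ZT22. *Upp2* had -1.02 ± 0.29, -1.13 ± 0.29 and -1.35 ± 0.29 in the 3 steps from ZT10 to ZT22. *1810013L24Rik* had its steepest step from ZT6 to ZT10, -0.51 ± 0.11 (SE; adjusted p = 0.11, limma), and *Gnat1* had -0.84 ± 0.34 there. The step of *Inmt* from ZT18 to ZT22, -0.89 ± 0.11, lay just outside the limit at an adjusted p of 0.0545 in limma.

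**Figure D4:**
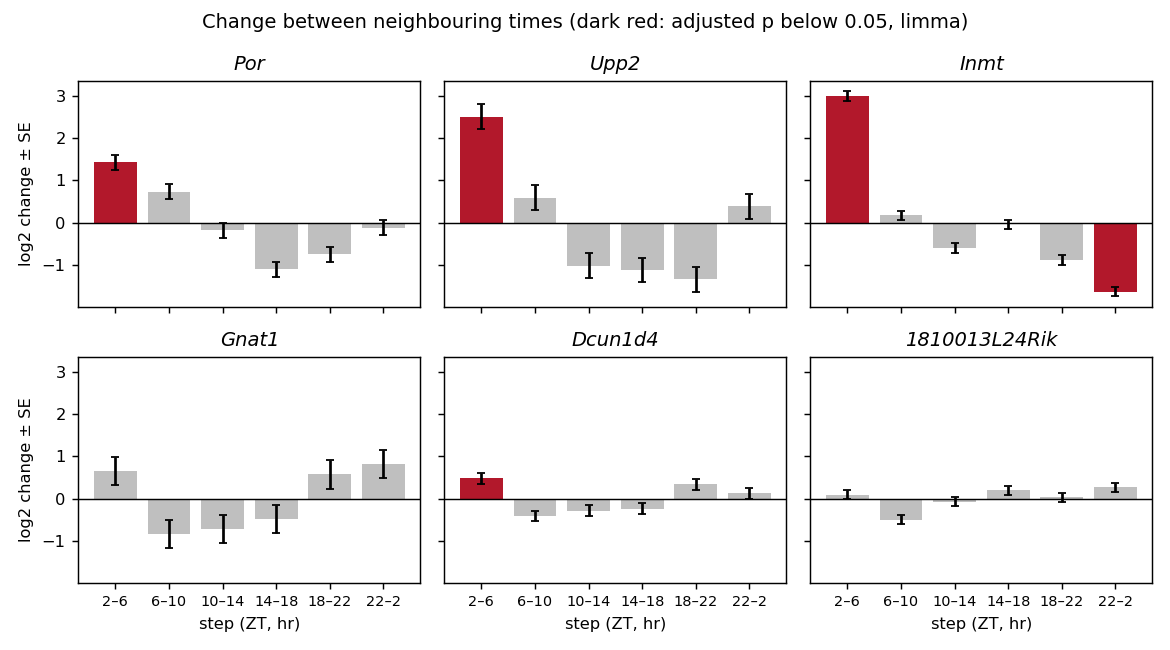
log2 change with its SE between neighbouring times for each gene (limma on log2(rpbp + 1)), with dark red bars for adjusted p below 0.05 and grey bars for the others. The 5 dark red bars are the step from ZT2 to ZT6 of *Por*, *Upp2*, *Inmt* and *Dcun1d4* and the step from ZT22 to ZT2 of *Inmt*.

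Other genes of the clock, its outputs and the pathways of these enzymes were counted by the same criteria. Of 14 targets of CLK:BMAL1 within the clock, 12 were in the table under these symbols and 11 were rhythmic, with a median F24 of 0.842, where 19.1% of all expressed genes were. With the adjusted permutation p 9 passed (4.81% of all expressed genes), and 10 were rhythmic without both ZT2 samples (15.1%). Among those with a high F24 were *Cry1*, a repressor (0.954, phase ZT17.3), *Per1* (0.889, ZT11.3), *Nr1d2*, which encodes REV-ERB beta (0.885, ZT8.05), and *Per2* (0.878, ZT12.2). All 3 genes of the positive arm were rhythmic late in the night: *Arntl*, which encodes BMAL1, at ZT21.1, *Clock* at ZT21.2 and *Npas2* at ZT21.9. All 4 further clock outputs were rhythmic too, 3 of them with the adjusted permutation p and 3 without both ZT2 samples. *Ccrn4l*, which encodes Nocturnin, peaked at ZT11.04, *Usp2*, a ubiquitin protease, at ZT10.5 and *Alas1*, the first enzyme of heme synthesis, at ZT9.47. *Nfil3*, a repressor at D-boxes, peaked at ZT20.1. Such genes were chosen for their known daily rhythm, so their counts carry no weight beyond a description.

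Among 15 listed electron carriers, P450 enzymes and other oxidoreductases, 5 were rhythmic (33.3%, beside 19.1% over all expressed genes), and all 5 had phases near that of *Por*. Not all of them take electrons from POR. Without *Fdx1* and *Fdxr*, which serve the mitochondrial chain, 4 of 13 were rhythmic (30.8%). *Cyb5*, which encodes cytochrome b5, had an F24 of 0.834 and a phase of ZT11.8. *Cyp2e1* peaked at ZT11.5 (F24 0.749), *Cyp2a5* at ZT12.1 (0.679), *Fdx1*, a mitochondrial electron carrier, at ZT11.9 (0.669) and *Cyp7a1*, the rate-limiting enzyme of bile acid synthesis, at ZT11.4 (0.599). The amplitude was 24.7 for *Cyp2a5* and 9.18 for *Cyp7a1*, but 1.90 for *Cyb5* and 2.06 for *Cyp2e1*. With the adjusted permutation p, *Cyb5*, *Cyp7a1* and *Cyp2a5* passed, 3 of 15 where 4.81% of all expressed genes did. The 10 others did not meet the criteria, although 2 of them, *Cyb5b* and *Cyb5r3*, did so without both ZT2 samples, where 7 of 15 were rhythmic and 15.1% of all expressed genes.

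Of 14 genes of uridine and pyrimidine metabolism, 11 were expressed and 6 were rhythmic (54.5%, beside 19.1% over all expressed genes), at scattered phases, and 4 without both ZT2 samples (15.1% of all expressed genes). They were *Tk1*, thymidine kinase (phase ZT13.7, F24 0.780), *Uckl1*, a uridine kinase-like protein (ZT1.27, 0.615), *Cda*, cytidine deaminase (ZT19.8, 0.611), *Umps*, which makes uridine monophosphate (ZT13.1, 0.607), and *Nt5c3*, a pyrimidine nucleotidase (ZT8.57, 0.548), besides *Dpys* (ZT15.5, 0.498). With the adjusted permutation p, *Tk1* alone passed, where 4.81% of all expressed genes did. *Upp1*, the paralog of *Upp2*, was below the expression minimum, at 0.84 to 4.32 rpbp.

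Of 10 measured genes of small-molecule methyltransferases and methyl supply, 7 were rhythmic (70.0%, beside 19.1% over all expressed genes), but 1 with the adjusted permutation p (*Ahcy*) and 1 without both ZT2 samples (*Gamt*), where 4.81% and 15.1% of all expressed genes were. *Ahcy*, which removes S-adenosylhomocysteine, had the highest F24, 0.767 at ZT14.1. *Gamt* (0.694, ZT11.3), *Pemt* (0.616, ZT12.6) and *Mat1a*, which makes the methyl donor S-adenosylmethionine (0.604, ZT13.3), followed. *Nnmt*, a methyltransferase related to *Inmt*, had an F24 of 0.015 at 70.3 to 305 rpbp and was not rhythmic. None of the 6 expressed G protein subunit genes beside *Gnat1* was rhythmic, at a median amplitude of 1.22. Of 14 measured neddylation genes 2 were rhythmic (14.3%, near the 19.1% of all expressed genes), *Cul4a* (0.616, ZT12.3) and *Cul2* (0.601, ZT22.4), and neither passed with the adjusted p. The 4 other measured members of the Dcun1d family were not rhythmic, with F24 from 0.0017 for *Dcun1d5* to 0.285 for *Dcun1d3*, and *Huwe1* had an F24 of 0.174.

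**Figure D5:**
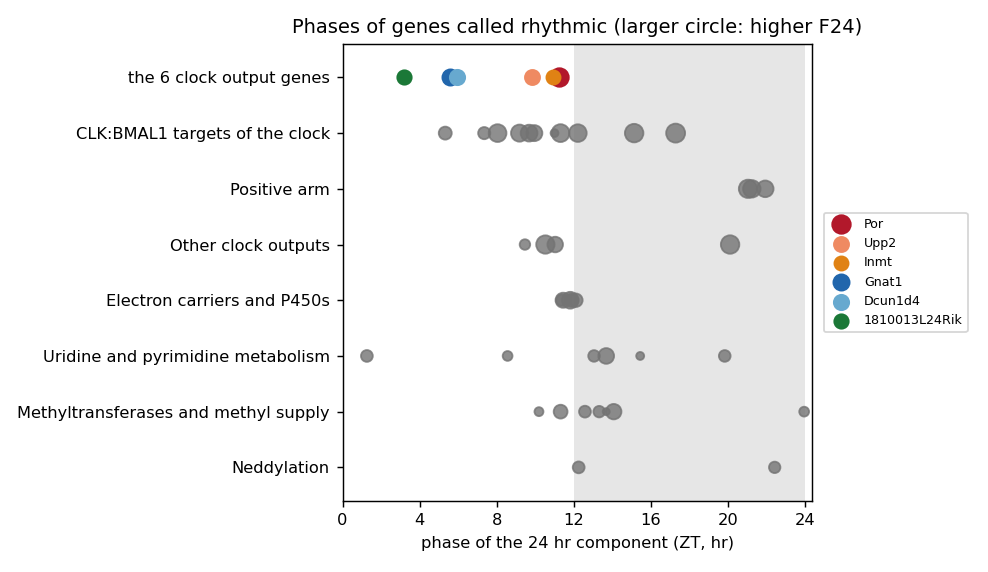
Phases (ZT, hr) of the genes called rhythmic in each list, one circle a gene and larger with F24, below the 6 clock output genes in colour; the dark phase is shaded. The 5 rhythmic electron carriers and P450 genes lie between ZT11.4 and ZT12.1, beside *Por* at ZT11.3, and the positive arm lies between ZT21.1 and ZT21.9.

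Among 8930 expressed genes with a mean of at least 8 rpbp and no value of 0, those with the most similar course over the 12 samples were found by Pearson r of log2(rpbp + 1), as a description. Nearest to *Por* were *Rhbdd2* (r = 0.98), *Usp2* (0.98) and *Uvrag* (0.95), with phases between ZT10.5 and ZT11.5. Nearest to *Upp2* were *Xdh*, xanthine dehydrogenase of purine breakdown (0.96), *Usp2* (0.95) and *mKIAA1272* (0.95). *Xdh* varied by 1.61-fold and *Usp2* by 40.7-fold, so that r compares shape and not size. Nearest to *Inmt* were *Nr1i3*, which encodes the drug-sensing receptor CAR (r = 0.99, 54.8 to 252 rpbp), *Ugt1a1* (0.98) and *Ugt1a2* (0.98), conjugating enzymes that share exons, so that their signals are not separate. Nearest to *Gnat1* were *Inoc1* (0.94), *Nr1d1*, which encodes REV-ERB alpha (0.93), and *Gnpnat1* (0.91). *Nr1d1* ranged from 3.80 to 142 rpbp with a phase of ZT5.33, beside ZT5.57 for *Gnat1*. Nearest to *Dcun1d4* were *Gstm4* (0.94), *M6prbp1* (0.91) and *M6pr* (0.90). Nearest to *1810013L24Rik* were *4930432O21Rik* (0.93), *Ppfibp1* (0.92) and *Thra* (0.91), a thyroid hormone receptor gene whose end overlaps *Nr1d1* on the opposite strand, where a signal without strand cannot tell them apart.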

How the data were processed

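Poly(A) RNA from 12 mouse liver samples was sequenced by the authors, with CASAVA 1.8 and TopHat and the build mm9 named in the submitters' processing notes. The deposited signal is the mean coverage of a gene's exons in rpbp, which the authors computed from uniquely mapped sequences without regard to strand and scaled to 10000000 sequences per sample. It was multiplied by 4 here to the scale on which the study set its criteria. It is no count. The study lists the uniquely mapped sequences of each library, but the reads behind a single value are not given, so no counting interval is printed. The file also holds the authors' F24 score, phase and p-value for each gene, which were not used. The last time is named ZT20 in the columns and ZT22 in the labels, and was taken as ZT22. No per-sample column was left out.

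F24, phase and amplitude were computed from the 12 values on the linear scale, with 10000 permutations (seed 1). limma 3.58.1 (R 4.3.3) was fitted to log2(rpbp + 1) for all 10198 expressed genes, with Benjamini-Hochberg adjustment over them. Python 3.11.15, numpy 2.4.6 and pandas 2.3.3 were used, and the calls were tested on simulated data. The genes and lists were chosen with earlier results of these data known. Named are the 6 genes, the 3 genes most similar to each, and up to 5 rhythmic genes a list by F24 with any paralog. *Dpys*, *Cyb5b*, *Cyb5r3*, *Fdxr* and *Huwe1* are named beyond that rule, and some results that were computed are not reported here. Alternatives were another pseudocount, expression minimum, scaling or amplitude, F24 on log2 values, the adjusted p, a replicate block, a variance trend, and each sample or series left out. Leaving out both ZT2 samples was added after the data were seen.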

Additional observations from a re-analysis of the deposited data

How the results depend on the processing

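All 6 genes remained rhythmic by the unadjusted criteria with a minimum of 16 rpbp or none, size factors, log2 values, amplitudes from time-point means and a replicate block, and 4 with the adjusted permutation p. Over all genes tested, 1494 of 7516 were rhythmic with a minimum of 16 rpbp and 2777 of 20069 with none. Of the 10198 expressed genes, 1476 to 1965 were rhythmic in the other settings just named, and 491 with the adjusted permutation p. With each series or sample left out the count among the 6 genes was between 1 and 6. It was 1 without series 1 (*Dcun1d4*) and 2 without series 2 (*Por* and *Upp2*), where 6 values are tested over 720 orders. The fall was seen over the whole table, with 369 and 286 of the 10198 expressed genes rhythmic, in place of 1948. Of the 76 expressed genes in the lists 38 were rhythmic, but 20 with the adjusted permutation p. The 24 hr component in limma was called in 4 to 6 of the 6 genes under every alternative run. It was called in 6 with a minimum of 16 rpbp, where 828 of 7516 genes were called, and with a variance trend, where 940 of 10198 were. The main fit called 878 of 10198 genes, and the fit with no minimum 628 of 20069. The number that differ between times was 3 to 6 when a sample was left out. Called steps numbered 8 in place of 5 with a minimum of 16 rpbp and with a variance trend, and 4 to 6 when a sample was left out. The added steps were ZT14 to ZT18 of *Por* and ZT10 to ZT14 and ZT18 to ZT22 of *Inmt*. With no minimum the step of *Dcun1d4* was not called, and *Gnat1* did not differ between times. With a minimum of 16 rpbp fewer genes are adjusted for, and the cause under the variance trend was not tested. No called step changed its direction under the alternatives run. The replicate numbers did not pair the samples, since deviations from the time means correlated between times of a series at r from -0.15 to 0.21, above 0.1 in 2 of 15 pairs. With the replicate block the 24 hr component was called in 4 genes in limma, with *1810013L24Rik* at an adjusted p of 0.0588, and over all expressed genes 650 were called in place of 878. All 6 genes have 2 samples a time, so small changes, as in *Dcun1d4* and *1810013L24Rik*, had few samples behind them. The changes of *Gnat1* were larger, but its series differed by up to 2.18-fold at 1 time.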
